A study of Mus musculus with 9 samples.

Results

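The genes described here are 43 mouse genes of the interferon response and of nucleic acid sensing, chosen by their symbols from the 24444 gene symbols of a deposited count table. They comprise 4 subunits of the type I and type II interferon receptors, 6 cytosolic nucleic acid sensors and adaptors, 8 transcription factors of interferon signalling, 15 antiviral effectors, 4 interferon-inducible GTPases, and 6 genes of the ISG15 system and other regulators. All 43 were in the table and 42 passed the filter on low counts. Mx1 did not, with at most 0.722 CPM (counts scaled by library size) in any library.

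RNA was sequenced from 9 mouse samples, 3 in each of 3 groups, in a study of MYC in a mouse model of WNT medulloblastoma, a tumour of the cerebellum and brainstem. The control group was normal cerebellum of CD1-nude mice, a strain without a working thymus that makes few T cells but keeps B cells, NK cells and myeloid cells. Both tumour groups were cells implanted orthotopically, at the site where the tumour arises, in CD1-nude hosts, and the dissected tissue was the GFP-positive part of the tumour. The age of the animals is not in the labels, and neither is whether 1 or several preparations of cells gave rise to each group, though the series design calls the 3 samples biological replicates. The implanted cells of both tumour groups carried Blbp-Cre, a Cre driven in neural progenitors, with Ctnnb1Ex3flx/flx (an allele that yields stable beta-catenin when exon 3 is removed), Trp53flx/flx and Pik3caE545K +/flx (an activating allele). The first tumour group is labelled EV, which the labels do not spell out. The second is labelled MycT58A, a Myc variant that lacks a phosphorylation site used to mark the protein for degradation. Cre and the 3 alleles are therefore shared by EV and MycT58A tumours and absent from control, which is normal tissue rather than the tumours' cell of origin.

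Cells detect misplaced RNA through the helicases RIG-I, MDA5 and LGP2, which signal through MAVS, and misplaced DNA through cGAS, which signals through STING. These routes switch on the interferon genes by way of IRF3 and IRF7. Secreted type I interferon then binds its receptor and activates a complex that holds STAT2 and IRF9 at interferon-stimulated response elements, while type II interferon acts at gamma-activated sites. In the brain, microglia, astrocytes, endothelium and neurons all respond to interferon, and resting levels of most of the response genes are low.

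The libraries held 16631523 to 30410089 counts. Granule neuron markers summed to 2830 to 4341 CPM in control and to at most 39.3 CPM in any tumour library, and the cortical marker Emx1 had no count in any library. Myc, the gene that the vector should raise, was measured at 0.94, 1.59 and 32.02 CPM in control 1, 2 and 3, 360.0, 19.9 and 762 in EV 1, 2 and 3, and 918, 859 and 727 in MycT58A 1, 2 and 3. The library labelled EV 3 therefore lay within the range of the MycT58A libraries, and EV 2 lay below control 3. At an edgeR adjusted p under 0.05, Myc was higher than control in both tumour groups. Between the tumour groups Myc was not called, and its unadjusted edgeR p was also not under 0.05. Whether the counts hold transcripts of the vector, the host's own gene or both is not given in the sources used here. EV 2 also stood apart in the interferon genes themselves: it was the highest of all 9 libraries in 29 of the 43 genes (67.4%, against 15.9% of all genes tested). Values without EV 2 or without the library labelled EV 3 therefore stand beside several of the results whose call or size rests on them.

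**Figure D1:**
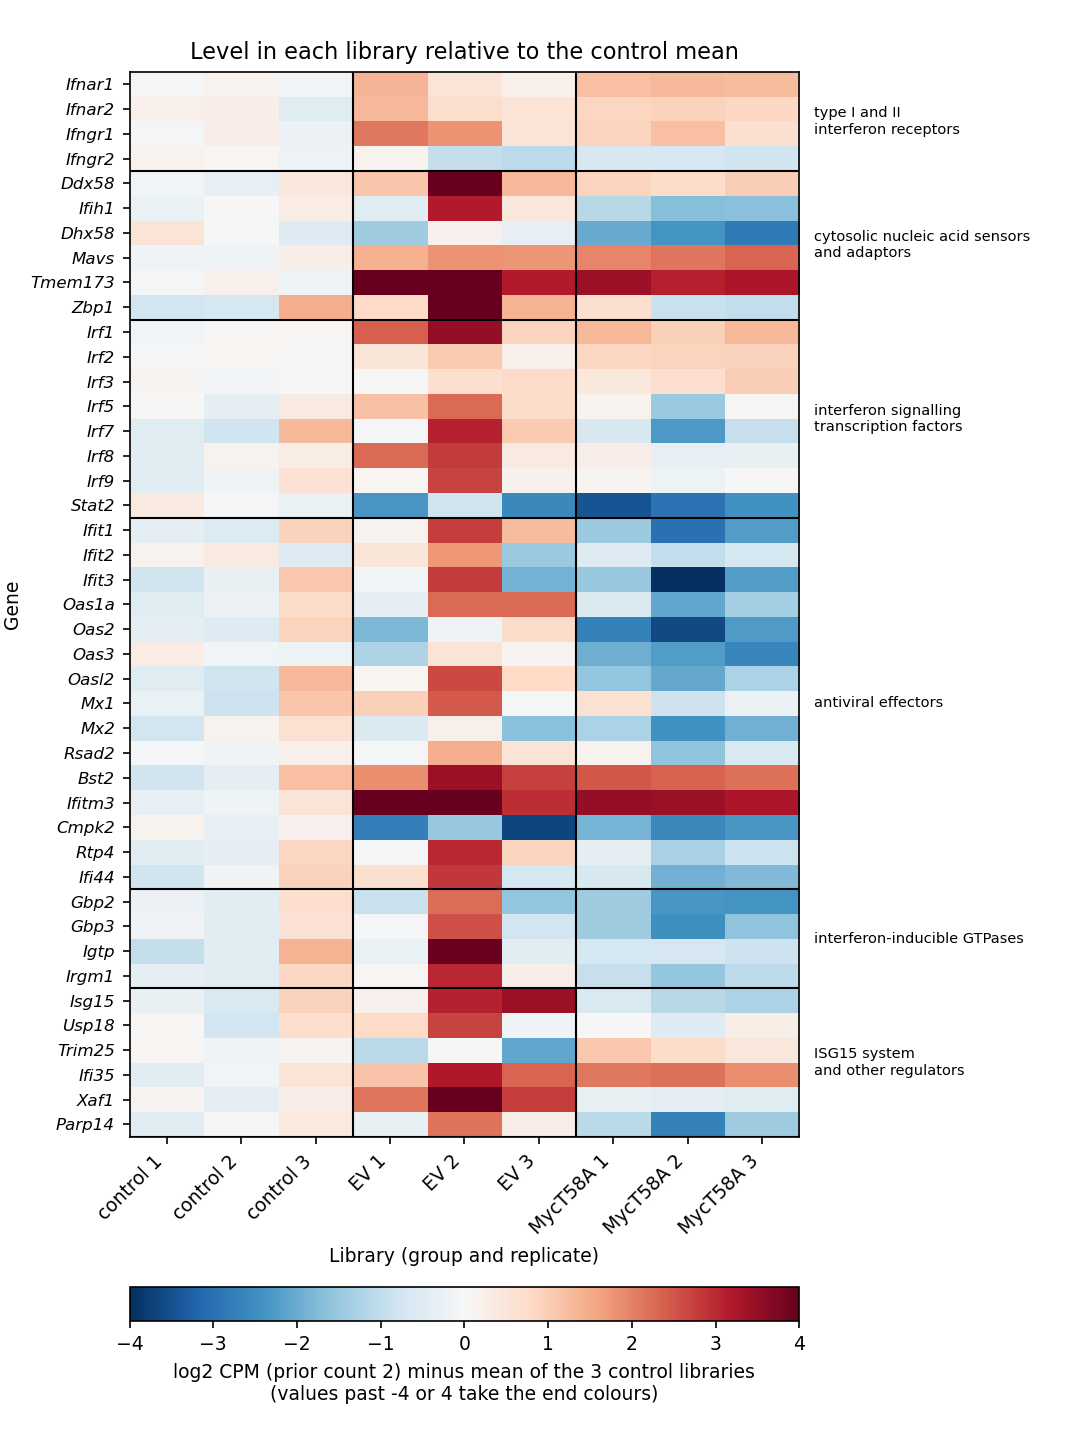
Level of each of the 43 genes (rows, grouped by role) in each of the 9 libraries (columns), as log2 CPM with a prior count of 2 minus the mean of the 3 control libraries; red is above and blue below control, and values past 4 or -4 take the end colours. EV 2 is the reddest column, with 31 of the 42 tested genes over 2-fold above control, and MycT58A 2 has 21 genes over 2-fold below it. Among all 15171 genes tested, 3936 were over 2-fold above control in EV 2 and 4971 over 2-fold below it in MycT58A 2.

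Against control, EV tumours had higher levels of 14 of the 42 tested genes and lower levels of 2, by edgeR at an adjusted p under 0.05. These are 33.3% and 4.76% of the set, and among all 15171 genes tested 57% were called, 30.7% higher and 26.3% lower. All 3 EV libraries lay above all 3 control libraries in 14 of the 42 (33.3%, against 30.3% of all genes) and below them in 2 (4.76%, against 32.2%). The median log2 fold change was 1.5 over the 42 genes and 0.14 over all genes, and without EV 2 the median over the 42 was 0.30, with 13 genes called higher and 4 lower. Without the library labelled EV 3, 20 were called higher and 2 lower. MycT58A tumours had 9 genes higher and 7 lower than control (21.4% and 16.7%, where 62.2% of all genes were called, 31.2% higher and 31% lower), and a median log2 fold change of -0.75 against -0.03 over all genes. All 3 MycT58A libraries lay above control in 13 of the 42 (31%, against 41% of all genes) and below it in 17 (40.5%, against 41.5%). Both of these comparisons use the same 3 control libraries.

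Between the tumour groups, 6 genes were lower in MycT58A than in EV tumours and 0 were higher. In all, 24 of the 42 genes passed at least 1 comparison and 18 passed none. The 6 are Xaf1, Ifit1, Isg15, Oas3, Dhx58 and Oasl2, and they are 14.3% of the 42, where 8.3% of all genes were called, 5.02% lower and 3.28% higher. At an unadjusted p under 0.05, edgeR had 28 genes lower and 2 higher (Mavs and Trim25), where it had 17.9% of all genes lower and 13.3% higher. DESeq2 called 19 lower and 1 higher (14.4% and 9.04% of all genes). By limma-voom 2 were lower and 1 higher (4.15% and 5.83% of all genes), and with library weights 2 and 0 (4.47% and 4.29%). All 3 MycT58A libraries lay below all 3 EV libraries in 19 of the 42 (45.2%, against 13.6% of all genes) and above them in 2 (4.76%, against 18.2%). The median log2 fold change was -1.88 over the 42 genes and -0.04 over all genes.

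How many genes were called between the tumour groups depended on single libraries. Without EV 1, 2 or 3 in turn, 14, 5 or 27 of the 42 were called lower in MycT58A tumours, where 7.9%, 7.69% or 14.7% of all genes were called lower. Against the 6 genes of the fit of all libraries, leaving out EV 2 therefore gave fewer of the 42 and more of all genes (1188 against 761). Leaving out any 1 MycT58A library left 0 called, and leaving out control 1, 2 or 3 left 1, 1 or 2. Calls over all genes also fell, with 44, 31 or 18 called lower without MycT58A 1, 2 or 3. Without control 1, 2 or 3, 260, 230 or 258 of all genes were called lower, against 761 in the fit of all libraries. A fit of the 2 tumour groups alone called 0 of the 42 and 34 of all genes, where the fit of all 9 libraries called 1259. Without EV 2 the median log2 fold change of the 42 genes was -0.80. The 5 genes called lower without EV 2 were Xaf1, Ifit1, Isg15, Oas3 and Ifih1, so 4 of the 6 remained, and Trim25 was called higher. The genes called lower without the library labelled EV 3 included all 4 interferon-inducible GTPases, Ifih1, Irf7, Irf8, Oas1a and Parp14 (edgeR adjusted p 0.00308 to 0.0469 over these 9), which the fit of all libraries did not call.

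**Figure D2:**
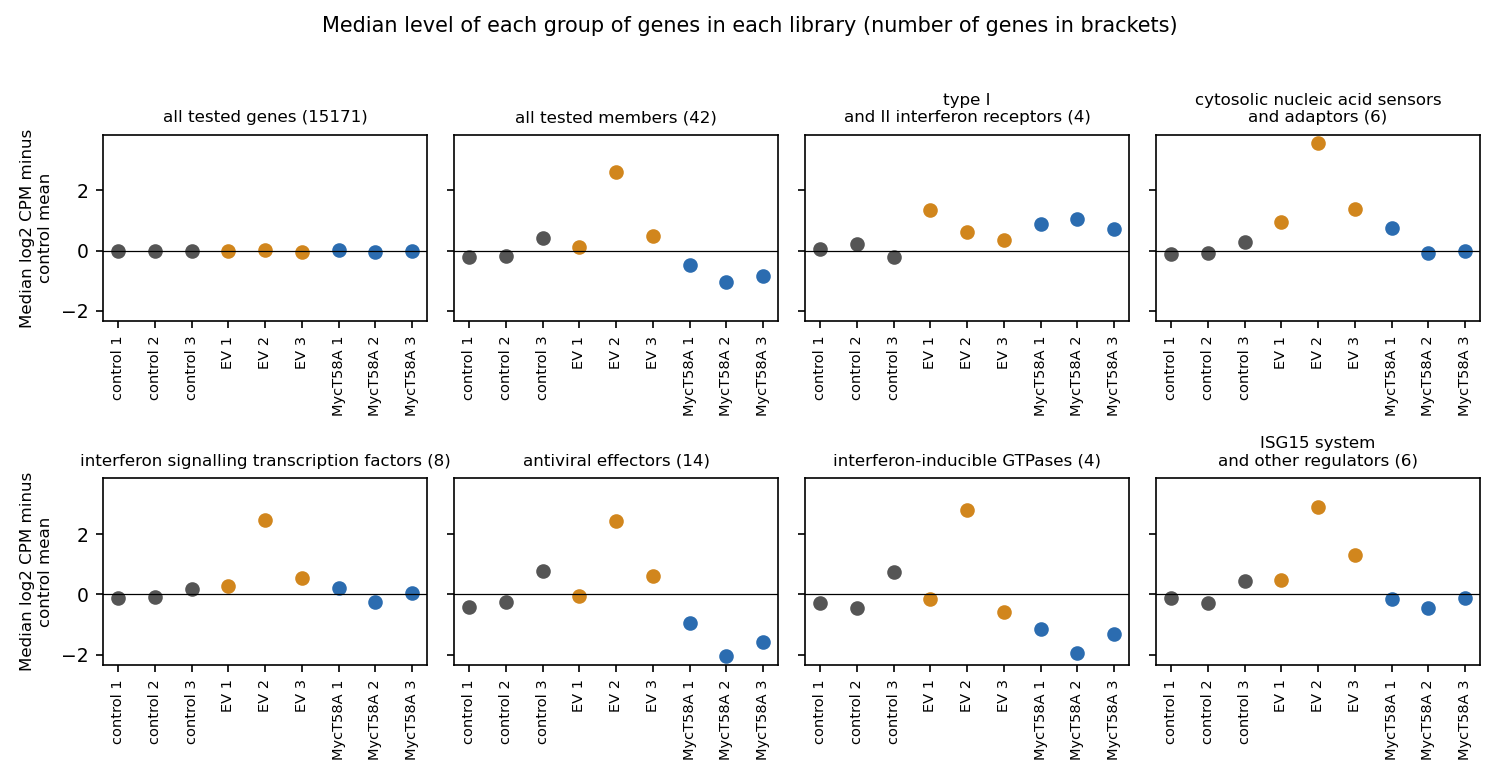
Median over genes of log2 CPM minus the control mean (vertical axis) in each library, for all 15171 genes tested, the 42 interferon and sensing genes, and their 6 roles. All tested genes stay near 0 in every library, whereas the 42 genes reach 2.61 in EV 2 and lie between -0.47 and -1.05 in the 3 MycT58A libraries.

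Across libraries, the median of the 42 genes relative to control was 0.12 in EV 1, 2.61 in EV 2 and 0.47 in the library labelled EV 3 on the log2 scale. In MycT58A 1, 2 and 3 it was -0.47, -1.05 and -0.82, below every control library. The control libraries were at -0.19, -0.17 and 0.41, and control 3 was the highest control library in 32 of the 43 genes (74.4%, against 32.8% of all genes tested). The typical spread between libraries of 1 group, as the median SD of log2 CPM, was 0.45 in control, 1.29 in EV and 0.34 in MycT58A for the 42 genes. Over all genes the same medians were 0.17, 0.64 and 0.20.

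Of the 4 receptor genes, 3 rose in EV tumours (Ifnar1, Ifnar2 and Ifngr1) and 2 in MycT58A tumours (Ifnar1 and Ifnar2) against control. These are 75% and 50% of the 4, where 30.7% and 31.2% of all genes were called higher. Ifnar1, a subunit of the type I interferon receptor, was at 43.1, 49.5 and 41.3 CPM in control, 114, 65.2 and 51.4 in EV and 104, 110.3 and 108 in MycT58A tumours, the values running from library 1 to 3 here and below. Every tumour library lay above every control library, and the MycT58A libraries were close to each other. Ifnar1 rose in EV (log2 fold change 0.79 ± 0.28, edgeR adjusted p = 0.0389; ± is the SE of a fold change, from 3 libraries a group) and in MycT58A tumours (log2 fold change 1.27 ± 0.28, edgeR adjusted p = 0.00441). Its partner Ifnar2 was at 24.97, 26.4 and 15.6 CPM in control, 54.1, 35.1 and 31.7 in EV and 39.3, 41.3 and 38.6 in MycT58A tumours, again without overlap with control. It rose in EV tumours (log2 fold change 0.85 ± 0.28, edgeR adjusted p = 0.0274) and about as much in MycT58A tumours (log2 fold change 0.83 ± 0.28, edgeR adjusted p = 0.0276). The rise of Ifnar1 in EV tumours did not pass without any 1 of the control or MycT58A libraries or EV 1 (edgeR adjusted p 0.0593 to 0.099). Nor did it pass in an edgeR fit of the 2 groups compared or by limma-voom (edgeR or limma adjusted p 0.051 to 0.0871). The rise of Ifnar2 did not pass in EV tumours without control 3 or EV 1 (0.0774 to 0.0809), nor in MycT58A tumours without control 3 or any 1 MycT58A library (0.0585 to 0.0879).

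Ifngr1, the ligand-binding chain of the type II receptor, was at 15.8, 19.9 and 14.1 CPM in control, 71.7, 57.8 and 23.3 in EV and 30.7, 38.01 and 25.4 in MycT58A tumours. All tumour libraries were above control, but the call was made in EV tumours (log2 fold change 1.62 ± 0.39, edgeR adjusted p = 0.00796) and not in MycT58A tumours (log2 fold change 0.92 ± 0.39, edgeR adjusted p = 0.0665), and the tumour groups overlapped. Ifngr2, the second chain, was at 46.3, 44.4 and 36.7 CPM in control, 46.95, 21.8 and 20.2 in EV and 27.2, 26.1 and 24.04 in MycT58A tumours. The MycT58A libraries lay below control, and the test against control was not passed (log2 fold change -0.72 ± 0.32, edgeR adjusted p = 0.0808). None of the 4 receptor genes passed the edgeR test between the tumour groups, with 0 at an unadjusted p under 0.05 and 0 by DESeq2 or either limma fit.

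Among the sensors, the adaptors were higher in both tumour groups and the RNA helicases differed from each other. Tmem173, which encodes STING, was at 2.94, 3.500 and 2.66 CPM in control, 54.8, 64.7 and 28.1 in EV and 33.03, 26.4 and 29.3 in MycT58A tumours. The lowest tumour library was several times above the highest control library. Tmem173 rose in EV (log2 fold change 4.02 ± 0.35, edgeR adjusted p = 5.7e-05) and in MycT58A tumours (log2 fold change 3.28 ± 0.34, edgeR adjusted p = 9.91e-05), and it passed under all 17 alternative analyses in both. Between the tumour groups Tmem173 was not called (log2 fold change -0.73 ± 0.31, edgeR adjusted p = 0.143). Without the library labelled EV 3 it was called lower in MycT58A tumours (log2 fold change -1.02, edgeR adjusted p = 0.00957). Mavs, the mitochondrial adaptor of the RNA helicases, was at 9.03, 9.08 and 12.04 CPM in control, 26.9, 34.5 and 33.8 in EV and 38.7, 44.00 and 50.9 in MycT58A tumours. The 3 groups did not overlap, with MycT58A tumours highest. Mavs rose in EV (log2 fold change 1.66 ± 0.22, edgeR adjusted p = 0.000388) and MycT58A tumours (log2 fold change 2.15 ± 0.22, edgeR adjusted p = 0.000104), and the test between the tumour groups was not passed (log2 fold change 0.49 ± 0.21, edgeR adjusted p = 0.158).

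Ddx58, which encodes the helicase RIG-I, was at 4.78, 4.12 and 6.95 CPM in control, 11.1, 82.6 and 13.2 in EV and 9.61, 8.69 and 10.3 in MycT58A tumours. Each tumour library was above control, and EV 2 was far above the other 8 libraries. It rose in EV tumours (log2 fold change 2.75 ± 0.74, edgeR adjusted p = 0.0128), by less without EV 2 (log2 fold change 1.21, edgeR adjusted p = 0.00588), and in MycT58A tumours the difference from control was not called (log2 fold change 0.85 ± 0.71, edgeR adjusted p = 0.317). By limma-voom the rise in EV tumours was not called (limma adjusted p = 0.0606). Ifih1, which encodes MDA5, a sensor of long double-stranded RNA, was at 3.39, 4.03 and 5.04 CPM in control, 2.88, 37.5 and 5.61 in EV and 1.87, 1.21 and 1.24 in MycT58A tumours. The MycT58A libraries were the lowest 3 of the 9, just outside the threshold against EV tumours (log2 fold change -3.41 ± 0.90, edgeR adjusted p = 0.0521), and inside it without EV 2 (log2 fold change -1.55, edgeR adjusted p = 0.0412).

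Dhx58, which encodes LGP2, a helicase that tunes the activity of the other sensors, was at 6.42, 4.47 and 3.08 CPM in control, 1.61, 5.05 and 3.57 in EV and 1.04, 0.781 and 0.554 in MycT58A tumours. All 3 MycT58A libraries were below the other 6 libraries. Dhx58 fell in MycT58A tumours relative to control (log2 fold change -2.54 ± 0.54, edgeR adjusted p = 0.00342) and to EV tumours (log2 fold change -2.09 ± 0.53, edgeR adjusted p = 0.0475), whereas EV tumours overlapped control. The call against EV tumours was lost without EV 2 (log2 fold change -1.69, edgeR adjusted p = 0.0586) and without any 1 of the control or MycT58A libraries (edgeR adjusted p 0.0586 to 0.166 over these 7). Zbp1, a sensor of Z-form nucleic acids that can trigger necroptosis, was at 0.164, 0.177 and 1.07 CPM in control, 0.651, 12.2 and 1.02 in EV and 0.576, 0.142 and 0.128 in MycT58A tumours. EV 2 was far above the rest, and no comparison was passed, the nearest being EV against control (log2 fold change 3.29 ± 1.32, edgeR adjusted p = 0.0595). That difference was 0.83 on the log2 scale without EV 2 (edgeR adjusted p = 0.472), and it was called without control 3 (log2 fold change 4.72, edgeR adjusted p = 0.0429) or without the library labelled EV 3 (log2 fold change 3.76, edgeR adjusted p = 0.0379).

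**Figure D3:**
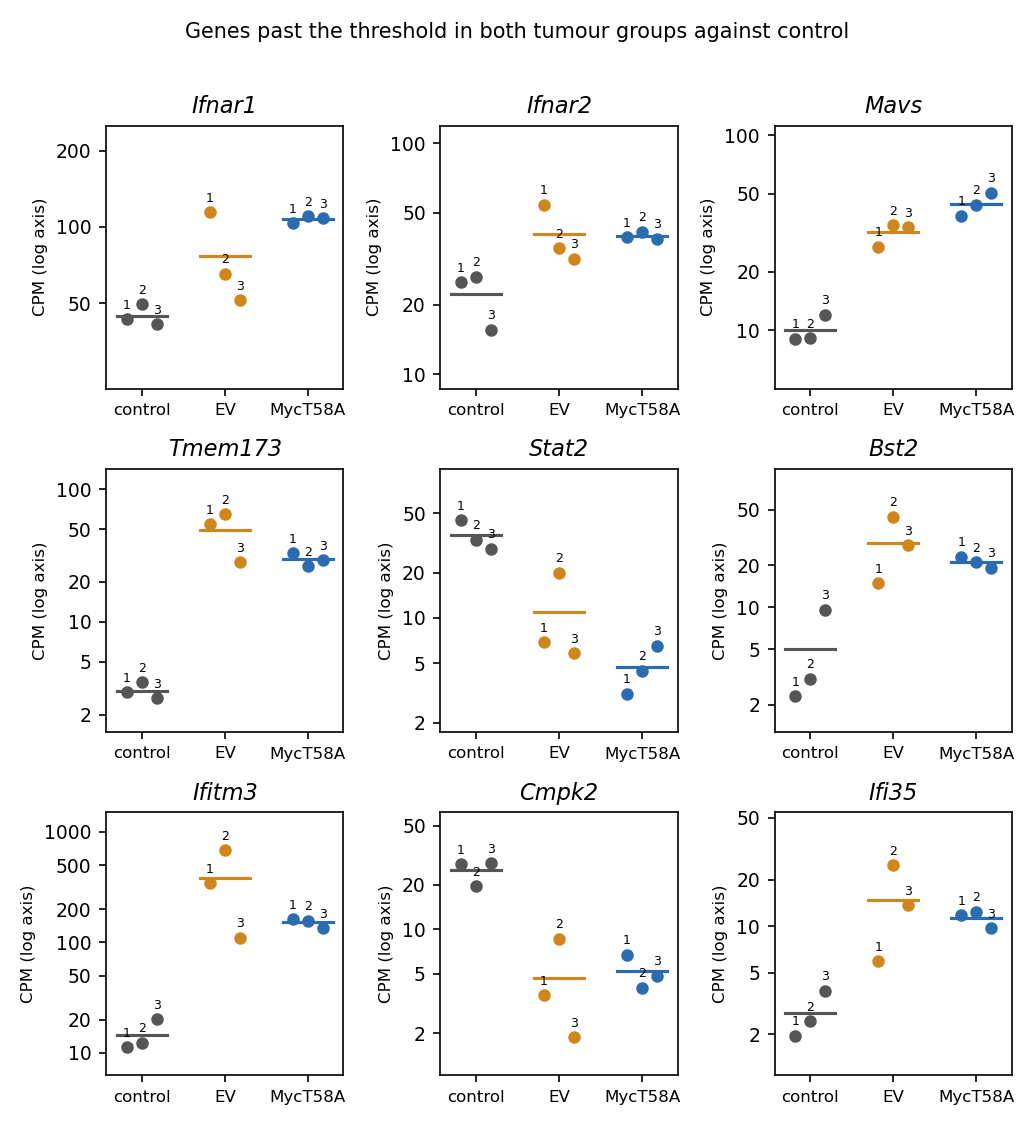
CPM (log axis) of the 9 genes called in the same direction in both tumour groups against control; points are libraries, numbered by replicate, and bars are group means. Ifnar1, Ifnar2, Mavs, Tmem173, Bst2, Ifitm3 and Ifi35 lie above control in all 6 tumour libraries, and Stat2 and Cmpk2 lie below it.

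The transcription factors split by family member. Stat2, a subunit of the complex that carries the type I signal, was at 44.7, 33.3 and 29.03 CPM in control, 6.92, 19.96 and 5.84 in EV and 3.13, 4.44 and 6.52 in MycT58A tumours. Every tumour library was below every control library. Stat2 fell in EV (log2 fold change -1.71 ± 0.51, edgeR adjusted p = 0.0188) and in MycT58A tumours (log2 fold change -2.93 ± 0.53, edgeR adjusted p = 0.00155). The EV call did not pass without control 1 or EV 1 (edgeR adjusted p 0.0554 to 0.0607), and without EV 2 the log2 fold change was -2.47, edgeR adjusted p = 0.000656. Irf9, the DNA-binding partner of STAT2, was at 5.598, 7.04 and 11.6 CPM in control, 8.12, 51.1 and 8.67 in EV and 8.24, 6.64 and 7.801 in MycT58A tumours. Apart from EV 2 its 9 values overlapped, and no comparison was passed. An exon of Irf9 overlaps Rnf31 on the same strand.

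Irf1, which acts downstream of both interferon types, was at 3.19, 3.63 and 3.64 CPM in control, 18.7, 40.5 and 6.58 in EV and 8.96, 6.88 and 8.87 in MycT58A tumours. All tumour libraries exceeded control. It rose in EV tumours (log2 fold change 2.65 ± 0.57, edgeR adjusted p = 0.00459), also without EV 2 (log2 fold change 1.87, edgeR adjusted p = 0.00509), and the MycT58A difference was not called (log2 fold change 1.24 ± 0.55, edgeR adjusted p = 0.0789). Irf8, a factor of microglia and other myeloid cells, was at 2.21, 3.32 and 3.78 CPM in control, 15.00, 21.7 and 3.91 in EV and 3.63, 2.41 and 2.47 in MycT58A tumours. EV libraries were above control and MycT58A libraries overlapped it. Irf8 rose in EV tumours (log2 fold change 2.12 ± 0.58, edgeR adjusted p = 0.0135) and lay just outside the threshold between the tumour groups (log2 fold change -2.25 ± 0.58, edgeR adjusted p = 0.0501).

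Irf5, a factor of macrophages and dendritic cells whose exons overlap Tnpo3 on the other strand, was at 1.72, 1.33 and 2.24 CPM in control, 3.97, 8.54 and 2.95 in EV and 1.91, 0.568 and 1.79 in MycT58A tumours. EV libraries were above the other 6. Its rise in EV tumours was barely inside the threshold (log2 fold change 1.55 ± 0.59, edgeR adjusted p = 0.0493) and did not pass without EV 1, EV 2, MycT58A 1, MycT58A 3 or any 1 control library (edgeR adjusted p 0.0548 to 0.142). The rise was also not called by edgeR with RLE size factors or by either limma fit (edgeR or limma adjusted p 0.05135 to 0.132). Irf7, which amplifies interferon production and overlaps Phrf1 on the other strand, was at 2.53, 2.04 and 9.01 CPM in control, 3.49, 31.2 and 7.54 in EV and 2.27, 0.674 and 1.88 in MycT58A tumours. The MycT58A libraries were below all EV libraries but overlapped control, and the test between the tumour groups was not passed (log2 fold change -3.13 ± 0.96, edgeR adjusted p = 0.0736; log2 fold change -1.77, edgeR adjusted p = 0.147 without EV 2).

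Irf2 and Irf3 were called in MycT58A tumours and not in EV tumours. Irf2, which competes with IRF1 for the same sites, was at 13.4, 15.1 and 14.4 CPM in control, 20.04, 29.8 and 16.5 in EV and 25.3, 26.3 and 27.4 in MycT58A tumours. Irf3, the factor that STING and MAVS activate, was at 17.1, 14.6 and 15.6 CPM in control, 16.1, 24.4 and 26.6 in EV and 21.1, 25.3 and 31.3 in MycT58A tumours, and its exons overlap Bcl2l12 on the other strand. Both genes had every MycT58A library above control and tumour groups that overlapped. Irf2 rose in MycT58A tumours (log2 fold change 0.88 ± 0.25, edgeR adjusted p = 0.0133), with EV tumours close to the threshold (log2 fold change 0.63 ± 0.25, edgeR adjusted p = 0.056) and inside it without the library labelled EV 3 (log2 fold change 0.82, edgeR adjusted p = 0.0114). Irf3 rose by less (log2 fold change 0.71 ± 0.26, edgeR adjusted p = 0.0376), and this did not pass without MycT58A 2, MycT58A 3 or any 1 control library (edgeR adjusted p 0.0738 to 0.132).

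The antiviral effectors moved in both directions. Of 14 tested, Bst2 and Ifitm3 rose in both tumour groups and Cmpk2 fell in both. Ifit1, Oas2, Oas3 and Mx2 fell in MycT58A tumours against control, and the other 7 passed neither comparison with control. In EV tumours 14.3% of the 14 were called higher and 7.14% lower, against 30.7% and 26.3% of all genes. In MycT58A tumours 14.3% were called higher and 35.7% lower, against 31.2% and 31% of all genes. The median log2 fold change of the 14 was 1.26 in EV tumours against control, -1.77 in MycT58A tumours against control and -2.58 in MycT58A against EV tumours.

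Ifitm3, a membrane protein that blocks the entry of viruses, was at 11.3, 12.4 and 20.1 CPM in control, 344, 685 and 110.4 in EV and 163, 157 and 134 in MycT58A tumours. It had the highest level per exon length of the 43 genes in all 3 groups, with mean RPKM (CPM per kilobase of exon) of 21.5 in control, 560.0 in EV and 223 in MycT58A tumours. Ifitm3 rose in EV (log2 fold change 4.70 ± 0.63, edgeR adjusted p = 0.000429) and in MycT58A tumours (log2 fold change 3.38 ± 0.60, edgeR adjusted p = 0.00136), and without EV 2 the EV log2 fold change was 3.97, edgeR adjusted p = 0.000211. Between the tumour groups Ifitm3 was not called (log2 fold change -1.33 ± 0.55, edgeR adjusted p = 0.143). That log2 fold change was -0.58 without EV 2 (edgeR adjusted p = 0.384). Without the library labelled EV 3 it was -1.76 and called (edgeR adjusted p = 0.0108). Bst2, which encodes tetherin and holds budding virions at the cell surface, was at 2.29, 3.06 and 9.57 CPM in control, 14.9, 44.6 and 27.8 in EV and 23.1, 21.1 and 19.1 in MycT58A tumours. Its tumour libraries were all above control, of which control 3 was the highest. Bst2 rose in EV (log2 fold change 2.55 ± 0.60, edgeR adjusted p = 0.00666) and in MycT58A tumours (log2 fold change 2.09 ± 0.59, edgeR adjusted p = 0.0135). Without control 3 these log2 fold changes were 3.47 and 3.00, and without control 2 the MycT58A call was lost (edgeR adjusted p = 0.0507).

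Cmpk2, a mitochondrial nucleotide kinase, was at 27.4, 19.5 and 28.00 CPM in control, 3.596, 8.62 and 1.87 in EV and 6.73, 4.05 and 4.86 in MycT58A tumours. All tumour libraries were below control. Cmpk2 fell in EV (log2 fold change -2.41 ± 0.53, edgeR adjusted p = 0.00499; log2 fold change -3.17, edgeR adjusted p = 0.000304 without EV 2) and in MycT58A tumours (log2 fold change -2.26 ± 0.53, edgeR adjusted p = 0.00554). Its genomic neighbour Rsad2, which encodes viperin and lies next to it on chromosome 12, ranged from 2.57 to 3.31 CPM in control, 2.71 to 8.07 in EV and 0.887 to 3.17 in MycT58A tumours, and passed no comparison.

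Ifit1, which binds RNA without a methylated cap, was at 2.78, 2.53 and 7.14 CPM in control, 4.11, 25.7 and 9.07 in EV and 1.26, 0.39 and 0.725 in MycT58A tumours. The 3 MycT58A libraries were the lowest of the 9, and EV overlapped control. Ifit1 fell in MycT58A tumours relative to control (log2 fold change -2.38 ± 0.78, edgeR adjusted p = 0.0263) and relative to EV tumours (log2 fold change -4.03 ± 0.83, edgeR adjusted p = 0.0286). Against control the call did not pass without control 3, MycT58A 2 or MycT58A 3 (edgeR adjusted p 0.079 to 0.096), with a log2 fold change of -1.73 without control 3. Against EV tumours it did not pass without control 1, control 2 or any 1 MycT58A library (0.0549 to 0.123) but did without EV 2 (log2 fold change -3.04, edgeR adjusted p = 0.0246). Ifit2 was at 10.9, 12.7 and 6.91 CPM in control, 13.9, 33.00 and 3.46 in EV and 6.800, 4.897 and 5.97 in MycT58A tumours, with EV values on either side of both other groups. Ifit3, whose reads may be shared with the near-identical Ifit3b, ranged from 1.19 to 4.57 CPM in control, 0.51 to 15.3 in EV and 0 to 0.684 in MycT58A tumours. Neither Ifit2 nor Ifit3 passed a comparison.

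The oligoadenylate synthetases make the messenger that activates RNase L, and 3 of the 4 in the set passed a comparison. Oas3 was at 3.06, 2.304 and 2.15 CPM in control, 0.993, 3.695 and 2.66 in EV and 0.576, 0.461 and 0.341 in MycT58A tumours. MycT58A libraries were below the other 6, and EV libraries lay on both sides of control. Oas3 fell in MycT58A tumours against control (log2 fold change -2.43 ± 0.55, edgeR adjusted p = 0.00469) and against EV (log2 fold change -2.40 ± 0.55, edgeR adjusted p = 0.0379). The latter call did not pass without any 1 of the control or MycT58A libraries (edgeR adjusted p 0.0712 to 0.143), and it did without EV 2 (log2 fold change -1.96, edgeR adjusted p = 0.0401). Oas2 was at 0.695, 0.62 and 1.77 CPM in control, 0.205, 0.807 and 1.59 in EV and 0.072, 0 and 0.128 in MycT58A tumours. These are low levels, with 5 counts in the 3 MycT58A libraries together, all 3 of them below the rest. Oas2 fell against control (log2 fold change -3.89 ± 1.07, edgeR adjusted p = 0.0121). Its log2 fold change was -3.23 without control 3, -3.30 without MycT58A 2 and -4.65 without MycT58A 3, and the size depends on few counts.

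Oasl2, a synthetase-like gene, was at 3.51, 2.84 and 12.3 CPM in control, 5.31, 31.2 and 8.62 in EV and 1.66, 1.14 and 2.003 in MycT58A tumours. The MycT58A libraries were the lowest of the 9, control 3 was above EV 1 and the library labelled EV 3, and EV 2 was highest. Oasl2 fell in MycT58A relative to EV tumours (log2 fold change -3.23 ± 0.83, edgeR adjusted p = 0.0486). This was not called without EV 2 (log2 fold change -2.12, edgeR adjusted p = 0.0627) or any 1 of the control or MycT58A libraries (edgeR adjusted p 0.0565 to 0.158 over these 7). Oas1a, which has close copies that could share its reads, ranged from 0.695 to 1.73 CPM in control, 0.753 to 5.22 in EV and 0.177 to 0.648 in MycT58A tumours, and its test between the tumour groups was not passed (log2 fold change -3.23 ± 0.84, edgeR adjusted p = 0.0511).

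Of the remaining effectors, only Mx2 was called. Mx2, a dynamin-like GTPase of the antiviral response, was at 0.286, 0.62 and 0.887 CPM in control, 0.343, 0.637 and 0.113 in EV and 0.18, 0.0355 and 0.0853 in MycT58A tumours. MycT58A libraries were below control and overlapped EV. Mx2 fell against control (log2 fold change -2.51 ± 0.82, edgeR adjusted p = 0.0257). The call did not pass without control 2, control 3, MycT58A 2 or MycT58A 3 (edgeR adjusted p 0.0597 to 0.0883), and without MycT58A 1 the log2 fold change was -3.21. Rtp4, an interferon-induced chaperone of receptors, was at 1.39, 1.46 and 3.500 CPM in control, 1.88, 16.2 and 3.63 in EV and 1.44, 0.745 and 1.02 in MycT58A tumours, with the highest value in EV 2. Ifi44 ranged from 1.19 to 4.06 CPM in control, 1.25 to 15.4 in EV and 0.497 to 1.33 in MycT58A tumours, and neither gene passed a comparison.

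The 4 interferon-inducible GTPases, of families that act against intracellular microbes, were highest in EV 2. Irgm1 was at 9.97, 9.22 and 22.7 CPM in control, 13.3, 104 and 15.2 in EV and 6.76, 4.29 and 6.18 in MycT58A tumours. Igtp, which shares exon sequence with Irgm2 on the same strand, was at 2.57, 3.77 and 13.5 CPM in control, 4.25, 80.1 and 3.74 in EV and 3.13, 3.19 and 2.81 in MycT58A tumours. In both genes EV 2 exceeded every other library, the other EV libraries lay within the range of control, and the MycT58A libraries were below all EV libraries. Gbp2 and Gbp3, guanylate-binding proteins of a family with close copies, reached 55.5 and 34.1 CPM in EV 2, and at most 6.27 and 5.31 in the other EV libraries. Their ranges in MycT58A tumours were 2.17 to 4.35 and 0.958 to 2.05 CPM.

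None of the 4 GTPases was called in any comparison by edgeR. Between the tumour groups all 4 had lower fitted levels in MycT58A tumours at an unadjusted p under 0.05 (log2 fold changes from -2.90 to -3.27), and DESeq2 called 1, Gbp3. Without EV 2 these log2 fold changes were -0.80 for Gbp2, -1.43 for Gbp3, -0.39 for Igtp and -1.31 for Irgm1 (edgeR adjusted p 0.0704 to 0.709). Against control 0 of the 4 had an unadjusted p under 0.05 in either tumour group. DESeq2 called Gbp3 lower in MycT58A tumours than in control, and limma-voom with library weights called Gbp2, Gbp3 and Irgm1 lower. Gbp2 had a log2 fold change of 0.82 in EV tumours against control, and without EV 2 the sign was reversed (log2 fold change -1.26, edgeR adjusted p = 0.04999).

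In the ISG15 system and the other regulators, Xaf1 had the smallest p between the tumour groups. Xaf1, an interferon-induced gene named for the protein's binding to the apoptosis inhibitor XIAP, was at 2.74, 1.91 and 3.03 CPM in control, 11.4, 52.5 and 17.5 in EV and 2.01, 1.92 and 1.79 in MycT58A tumours. All EV libraries were above the other 6, and the MycT58A libraries overlapped control. Xaf1 rose in EV tumours against control (log2 fold change 3.40 ± 0.57, edgeR adjusted p = 0.0013) and fell in MycT58A against EV tumours (log2 fold change -3.83 ± 0.58, edgeR adjusted p = 0.013). Without EV 2 both passed (log2 fold change 2.5, edgeR adjusted p = 0.000305 and log2 fold change -2.92, edgeR adjusted p = 0.00263). The call between the tumour groups was lost without any 1 MycT58A library (edgeR adjusted p 0.0668 to 0.0806).

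Isg15, a ubiquitin-like protein that is joined to others during the response, was at 1.68, 1.33 and 3.97 CPM in control, 2.36, 18.1 and 23.4 in EV and 1.33, 0.923 and 0.81 in MycT58A tumours. EV 2 and the library labelled EV 3 were above the rest, EV 1 lay within control, and the MycT58A libraries were below all EV libraries. Isg15 rose in EV tumours (log2 fold change 2.65 ± 0.79, edgeR adjusted p = 0.0198) and fell in MycT58A against EV tumours (log2 fold change -3.83 ± 0.84, edgeR adjusted p = 0.0331). The rise did not pass without control 1, control 2 or the library labelled EV 3 (edgeR adjusted p 0.0518 to 0.07), and its log2 fold change was 3.31 without control 3. Neither limma fit called the rise (limma adjusted p 0.105 to 0.167). The fall did not pass without any 1 of the control or MycT58A libraries (0.0551 to 0.136), and did without EV 2 (log2 fold change -3.64, edgeR adjusted p = 0.0339). Usp18, which removes ISG15 and dampens the type I receptor, ranged from 1.15 to 3.36 CPM in control, 1.81 to 13.6 in EV and 1.38 to 2.39 in MycT58A tumours, and passed no comparison.

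Ifi35, an interferon-induced leucine zipper protein, was at 1.96, 2.44 and 3.83 CPM in control, 5.92, 24.7 and 13.6 in EV and 11.8, 12.4 and 9.72 in MycT58A tumours. Its tumour libraries were all above control. Ifi35 rose in EV (log2 fold change 2.43 ± 0.52, edgeR adjusted p = 0.00432; log2 fold change 1.84, edgeR adjusted p = 0.00589 without EV 2) and in MycT58A tumours (log2 fold change 2.04 ± 0.51, edgeR adjusted p = 0.00787). Trim25, a ubiquitin ligase that helps to activate RIG-I, was at 5.64, 4.696 and 5.74 CPM in control, 2.47, 5.39 and 1.19 in EV and 11.4, 8.98 and 7.37 in MycT58A tumours. Its order was the other way round, with every MycT58A library above the other 6. The test between the tumour groups was not passed (log2 fold change 1.61 ± 0.51, edgeR adjusted p = 0.0788), and was without EV 2 (log2 fold change 2.32, edgeR adjusted p = 0.0104). Parp14, an ADP-ribosyltransferase, was at 3.11, 4.21 and 5.46 CPM in control, 3.36, 18.99 and 4.99 in EV and 1.91, 0.568 and 1.49 in MycT58A tumours, with MycT58A libraries lowest and outside the threshold against EV (log2 fold change -2.78 ± 0.74, edgeR adjusted p = 0.0535; log2 fold change -1.65, edgeR adjusted p = 0.068 without EV 2).

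**Figure D4:**
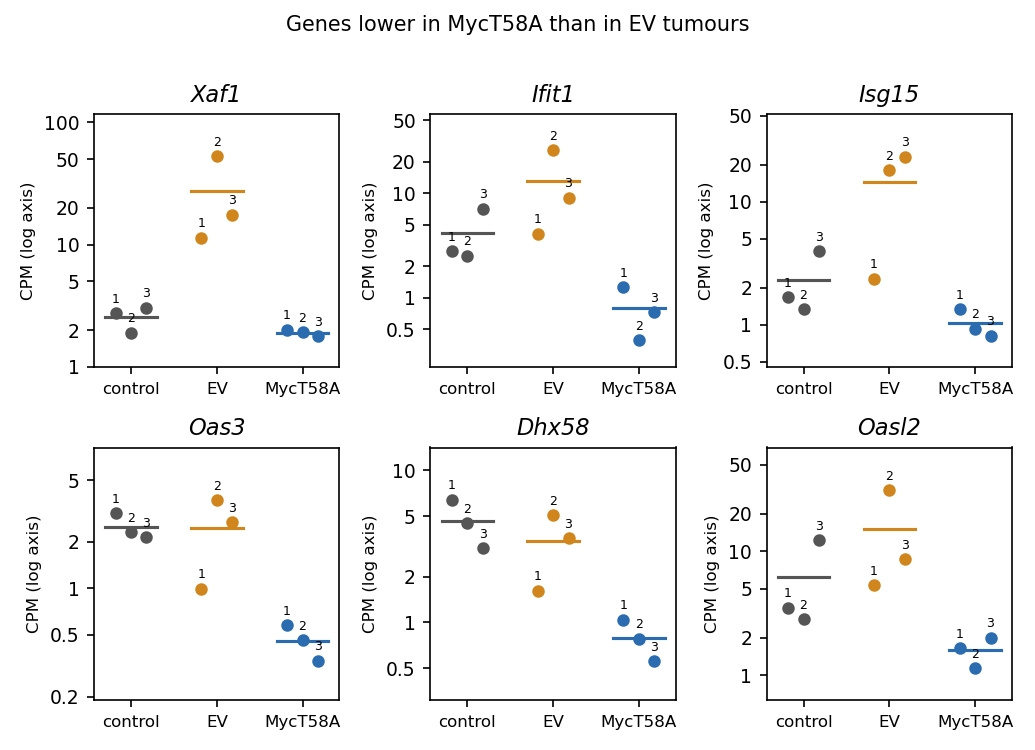
CPM (log axis) of the 6 genes called lower in MycT58A than in EV tumours; points are libraries, numbered by replicate, and bars are group means. In each gene the 3 MycT58A libraries lie below the 3 EV libraries, and in Ifit1, Oas3, Dhx58 and Oasl2 also below the 3 control libraries.

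The 6 genes that fell between the tumour groups lie on 4 chromosomes in the mm10 build, by the GENCODE vM21 annotation. Xaf1 spans chr11:72301629-72313733 and Dhx58 chr11:100694884-100704271. Oas3 spans chr5:120753098-120777661 and Oasl2 chr5:114896936-114912234. Isg15 spans chr4:156199424-156200818 and Ifit1 chr19:34640871-34650009. In 4 of the 6, Ifit1, Oas3, Dhx58 and Oasl2, MycT58A libraries were also below all control libraries, while in Xaf1 and Isg15 they overlapped control.

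The promoters of 5 of these 6 genes are shown because they show which of them carry letters of an interferon-stimulated response element near the start. Each line is the 150 bases before the RefSeq transcript start, 5′ to 3′ on the gene's strand, in GRCm38.p6 (mm10). Capitals mark matches to GAAANNGAA on either strand, with overlapping matches merged.
Ifit1, chr19:34640739-34640888, plus strand: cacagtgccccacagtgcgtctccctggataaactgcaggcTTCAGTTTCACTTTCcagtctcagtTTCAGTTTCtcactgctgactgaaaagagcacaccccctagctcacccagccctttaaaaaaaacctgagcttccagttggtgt
Isg15, chr4:156200819-156200968, minus strand: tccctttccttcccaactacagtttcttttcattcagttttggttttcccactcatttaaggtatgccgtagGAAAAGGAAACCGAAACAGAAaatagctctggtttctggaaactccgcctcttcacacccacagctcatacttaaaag
Oas3, chr5:120777660-120777809, minus strand: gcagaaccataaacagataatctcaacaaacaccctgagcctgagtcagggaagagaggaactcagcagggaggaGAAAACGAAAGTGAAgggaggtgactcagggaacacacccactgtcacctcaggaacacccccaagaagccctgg
Oasl2, chr5:114896784-114896933, plus strand: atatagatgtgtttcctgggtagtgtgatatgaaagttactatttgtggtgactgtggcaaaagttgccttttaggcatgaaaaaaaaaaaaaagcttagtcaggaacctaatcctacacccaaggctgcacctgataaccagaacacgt
Xaf1, chr11:72301479-72301628, plus strand: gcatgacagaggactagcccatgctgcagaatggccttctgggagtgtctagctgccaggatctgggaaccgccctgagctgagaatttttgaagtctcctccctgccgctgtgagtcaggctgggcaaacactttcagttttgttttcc
In Ifit1 the first bases of the matches lay 109, 103 and 84 bases before the start, in Isg15 78, 72 and 66, and in Oas3 75 and 69. The windows of Oasl2 and Xaf1 held no match to these letters.

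RefSeq promoters, from 250 bases before to 50 after the start, were found for 34 of the 43 genes. GAAANNGAA was present, on either strand, in 18 of the 34 genes (52.9%) and in 46.2% of their 39 promoters, against 8.56% of all 32851 promoters in the table. By role it was found in 8 of 11 effectors, all 4 GTPases, 2 of 3 sensors, 2 of 8 transcription factors, 2 of 4 regulators and 0 of 4 receptors. TTCNNNGAA, the letters of a gamma-activated site, was present in 11 of the 34 genes (32.4%) and in 28.2% of their promoters, against 8.3% of all promoters. Of the 7 genes that rose in both tumour groups, 6 had a promoter in the table, and it was found in 5 of these 6 (Ifnar1, Ifnar2, Bst2, Ifitm3 and Ifi35). Among these, Bst2 and Ifitm3 also held GAAANNGAA. TTCNNNGAA was in 0 of 4 genes lower in MycT58A tumours than in control and 0 of 5 lower than in EV tumours. GAAANNGAA was in 3 of those 4 and 3 of those 5. The sets are small, and differences between them were not tested. The 2 patterns can overlap, a match is a description of these letters, and binding was not measured.

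**Figure D5:**
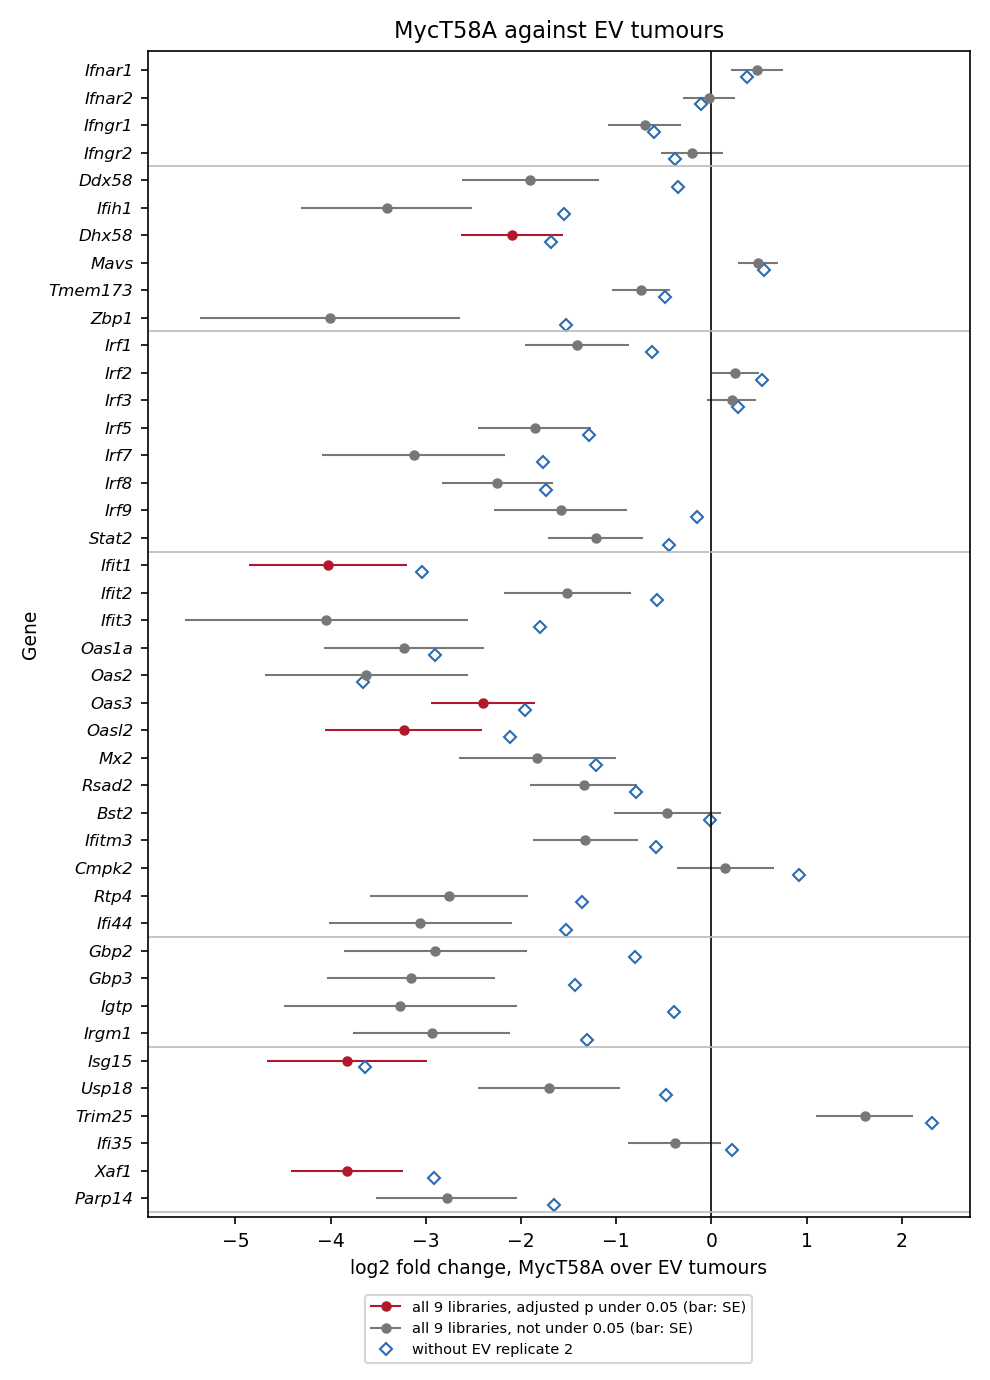
Log2 fold change of MycT58A over EV tumours for the 42 tested genes, with bars of 1 SE from the fit of all 9 libraries (red where the edgeR adjusted p was under 0.05), and the fold change without EV 2 as open diamonds. Most points lie left of 0, 36 of 42, and leaving out EV 2 moves Igtp from -3.27 to -0.39.

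Of 12 ligand genes of the pathway, 1 passed the filter on low counts and 7 had no count in any library, among them Ifnb1, and 3 counts over all 9 libraries would be 0.0137 CPM. Ifng had 1 count each in EV 1 and EV 2. The ligand that passed was Il18, a cytokine that induces interferon gamma, named after its values were seen. It was at 4.82, 6.38 and 7.19 CPM in control, 8.12, 25.1 and 0.851 in EV and 2.52, 2.77 and 2.86 in MycT58A tumours, and passed no comparison. Among 81 tested genes of a wider list of the pathway, which did not include the 43, 36 were higher and 2 lower in EV tumours than in control (44.4% and 2.47%, against 30.7% and 26.3% of all genes). In MycT58A tumours 13 were higher and 15 lower than in control (16% and 18.5%, against 31.2% and 31% of all genes). Between the tumour groups 9 were lower (11.1%, against 5.02% of all genes) and the other 72 did not pass, and the median log2 fold change was -1.76. At an unadjusted p under 0.05 edgeR had 48 of the 81 in either direction (59.3%, against 31.1% of all genes). None of the 9 passed without any 1 MycT58A library (edgeR adjusted p of at least 0.0524).

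Of the signal carriers, Jak1, the kinase used by all interferon receptors, was at 247, 235 and 252 CPM in control, 129.7, 165 and 104 in EV and 64.1, 61.1 and 52.4 in MycT58A tumours, and the 3 groups did not overlap. Jak1 fell in EV tumours against control (log2 fold change -0.88 ± 0.20, edgeR adjusted p = 0.00556) and in MycT58A against EV tumours (log2 fold change -1.17 ± 0.20, edgeR adjusted p = 0.0175). Tyk2, its partner at the type I receptor, rose against control in EV (log2 fold change 1.27 ± 0.29, edgeR adjusted p = 0.00594) and MycT58A tumours (log2 fold change 1.07 ± 0.29, edgeR adjusted p = 0.0113), the latter not without control 1 (edgeR adjusted p = 0.0526).

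Il10rb, the chain shared by the receptors of interferon lambda and IL-10, was at 6.82, 8.73 and 8.49 CPM in control, 24.1, 17.03 and 16.7 in EV and 6.12, 5.22 and 5.71 in MycT58A tumours, and fell between the tumour groups (log2 fold change -1.76 ± 0.26, edgeR adjusted p = 0.0121). Ifnlr1, the other lambda receptor chain, was at 1.95, 1.78 and 4.99 CPM in EV tumours and at most 0.0426 in MycT58A tumours (log2 fold change -6.57 ± 0.88, edgeR adjusted p = 0.00941), where 2 counts in all leave the size uncertain. Without the library labelled EV 3 that log2 fold change was -5.95. Mb21d1, which encodes the DNA sensor cGAS, was at 0.368, 0.31 and 0.233 CPM in control, 0.925, 2.59 and 4.88 in EV and 0.612, 0.39 and 0.426 in MycT58A tumours. It rose in EV tumours against control (log2 fold change 3.17 ± 0.65, edgeR adjusted p = 0.00357) and fell in MycT58A against EV tumours (log2 fold change -2.53 ± 0.63, edgeR adjusted p = 0.0441). Without the library labelled EV 3 these log2 fold changes of Mb21d1 were 2.52 and -1.86, both called. The call between the tumour groups was lost without any 1 control or MycT58A library (edgeR adjusted p 0.0817 to 0.158), and also without the filter, in a fit of these 2 groups and by both limma fits (0.0626 to 0.154). Eif2ak2, the RNA-activated kinase PKR, rose against control in both EV (log2 fold change 1.39 ± 0.28, edgeR adjusted p = 0.00323) and MycT58A tumours (log2 fold change 0.80 ± 0.28, edgeR adjusted p = 0.0315). Its rise in MycT58A tumours did not pass without control 1, control 2 or any 1 MycT58A library (edgeR adjusted p 0.0609 to 0.0990), nor by total counts alone (0.0614).

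The other 5 genes of the wider list that were called lower in MycT58A than in EV tumours were Samd9l (log2 fold change -2.48 ± 0.44, edgeR adjusted p = 0.0196), Lgals3bp (log2 fold change -3.44 ± 0.75, edgeR adjusted p = 0.0327), Ticam1 (log2 fold change -1.22 ± 0.31, edgeR adjusted p = 0.0474), Tlr8 (log2 fold change -3.49 ± 0.90, edgeR adjusted p = 0.04997) and Iigp1 (log2 fold change -5.47 ± 1.38, edgeR adjusted p = 0.0469). Ticam1 encodes the adaptor TRIF, Tlr8 is an RNA-sensing receptor of myeloid cells, and Iigp1 is a GTPase of the same family as Igtp. Without EV 2 Lgals3bp was still called (log2 fold change -2.37, edgeR adjusted p = 0.027). Without it the last 3 were not called, with edgeR adjusted p-values of 0.0515, 0.0576 and 0.0551. Iigp1 was at 12.9, 97.4 and 1.19 CPM in EV tumours and no higher than 0.971 in MycT58A tumours, so EV 2 held most of its counts.

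Markers of other cells also differed between the groups, and not all in the pattern of these genes. In bulk tissue, fewer cells of a type and less RNA per cell cannot be told apart. All 18 microglia and macrophage markers had counts in every library, and their summed level was 225 to 290 CPM in control (225, 267 and 290 in libraries 1 to 3), 555 to 858 in EV and 102 to 215 in MycT58A tumours. The median level of the 18 overlapped more. It was 4.56, 9.68 and 6.07 CPM in control 1, 2 and 3, 23.5, 24.9 and 7.54 in EV and 8.35, 4.22 and 6.12 in MycT58A tumours. Of the 18, 11 were higher in EV tumours than in control (61.1%, against 30.7% of all genes), and 5 were lower in MycT58A than in EV tumours (27.8%, against 5.02%), which were Cx3cr1, Cd68, Trem2, C1qa and Adgre1. All 18 had lower fitted levels in MycT58A than in EV tumours at an unadjusted p under 0.05, with a median log2 fold change of -1.98. Against control, MycT58A tumours had Cd68 and Cd14 higher and Cx3cr1, P2ry12 and Csf1r lower. These are 11.1% and 16.7% of the 18, against 31.2% and 31% of all genes. T cell markers summed to 7.18 CPM in EV 2 and to 0.399 to 1.06 in the other libraries, with Cd3e at 0 in all of those 8. NK cell markers summed to 5.10 CPM in EV 2 and to 0.274 to 0.648 in the other tumour libraries, and to 16.5 to 41.3 in control, where Eomes, also made by cerebellar neurons, was most of the sum. Pericyte and fibroblast markers summed to 10815 CPM in EV 2, 8143 in the library labelled EV 3 and 1695 in EV 1, against 1269 to 1641 in MycT58A tumours and 286 to 359 in control. Endothelial markers summed to 326 CPM in EV 2 and 64.3 and 132 in EV 1 and the library labelled EV 3, against 214 to 238 in control and 57.7 to 101 in MycT58A tumours. Keratinocyte and epithelial markers summed to 226 CPM in the library labelled EV 3 and 6.497 to 58.9 in the other 8. Krt5 and Krt14, 2 of the 4, were called lower in MycT58A than in EV tumours (50%, against 5.02% of all genes). In 1 of the 4 every MycT58A library lay above every EV library, and 0 were called higher. Neutrophil markers summed to 26.1 CPM in the library labelled EV 3 and 2.16 to 9.98 in the others, with Ly6g at 0 in 8 libraries. Of 4 of them tested, S100a8 and S100a9 were called higher in EV tumours than in control (50%, against 30.7% of all genes). There 1 of the 4 had a negative fold change, and in MycT58A tumours Csf3r was called lower than in control (25%, against 31% of all genes). Astrocyte markers summed to 2925 to 3717 CPM in control, 257 to 563 in EV and 153 to 428 in MycT58A tumours. Oligodendrocyte markers summed to 2697 to 4961 CPM in control, 76.7 to 280.1 in EV and 41.2 to 622 in MycT58A tumours. The part of these cells in the differences of the interferon genes was not tested.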

How the data were processed

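RNA-seq counts of 9 mouse samples were analysed, 3 each of normal cerebellum, EV tumours and MycT58A tumours. The authors deposited whole-number counts per gene symbol, unnormalized. Per the labels' protocols, RNA came from microdissected frozen tissue (NucleoSpin kit), with standard Illumina library steps. Per the submitters' processing notes, bcl2fastq, TopHat and edgeR were used with the mm10 build. The read counter, its annotation, tool versions and strand use are not stated in these sources, so reads of overlapping genes, or of near-identical copies such as those of Ifit3, Oas1a, Mx2 and the Gbp genes, cannot be told apart. The growth protocol speaks of cortex and the sample names of cerebellum for the controls.

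The table held 24444 symbols, of which 19733 had a count. In R 4.3.3, edgeR 4.0.16 filtered low genes (filterByExpr, minimum count 10 and minimum total 15), and 15171 stayed. After TMM scaling, glmQLFit took all 9 libraries together with the group as the only factor, leaving 6 residual degrees of freedom, and glmQLFTest compared the groups in pairs. Each gene therefore has 1 dispersion for the 3 groups, and a comparison also rests on the group not compared. Benjamini-Hochberg adjustment ran over the whole table, and an adjusted p under 0.05 was called. The tests weigh each difference against the spread between these samples, which may in part be technical. Standard errors were obtained from each fold change and its F statistic. CPM and RPKM use TMM-scaled library sizes, and RPKM the exon length in GENCODE vM21. Script steps were tested on simulated data.

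The alternatives were size factors (RLE), total counts alone, no filter, at least 1 CPM in every library of some group, a fit of the 2 groups compared, DESeq2 1.42.0, limma 3.58.1 (voom, with and without library weights) and leaving out each library. Values in every library are given for each gene past the threshold in any comparison and, in each role, for the 2 others of highest mean CPM, and the rest by range. From the wider pathway list, Ifnb1, Ifng, Jak1, Tyk2, Eif2ak2 and the genes called between the tumour groups are named, and 1 further gene is not reported here. The genes and lists were chosen with earlier results of these data known. Promoter sequences are from RefSeq (GRCm38.p6), and 34 of the 43 symbols matched. Figures were drawn with matplotlib 3.10.9.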

Additional observations from a re-analysis of the deposited data

How the results depend on the processing

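Of the 16 calls among the 42 genes in each comparison with control, 10 in EV and 11 in MycT58A tumours passed under every alternative that tested the gene, up to 17, and 0 of the 6 calls between the tumour groups did. Alternatives with all samples of the groups compared also ended calls against control. These were Ifnar1, Ifnar2, Ddx58, Irf5 and Isg15 in EV tumours, and Irf3 and Ifit1 in MycT58A tumours. Xaf1 passed under 13 of the 17, Ifit1 under 10, Isg15 and Oas3 under 8, and Dhx58 and Oasl2 under 6. Genes called lower in MycT58A than in EV tumours numbered 6, or 0 in a fit of these 2 groups, 19 by DESeq2, 2 by limma-voom and 2 with library weights, 4 without the filter, 9 with the filter of 1 CPM, 7 by size factors and 8 by total counts, and genes called higher numbered 0, or 1 by DESeq2 and 1 by limma-voom. Over all genes 1259 were called, 34 in a fit of these 2 groups and 3446 by DESeq2. In MycT58A tumours against control 7 of the genes were lower, or 17 in a fit of these 2 groups, 12 by DESeq2 and 15 with library weights. Leaving out 1 library at a time gave 11 to 20 genes higher and 1 to 4 lower in EV tumours against control (6954 to 10186 of all genes called), 7 to 11 higher and 5 to 13 lower in MycT58A tumours against control (8012 to 10860), and 0 to 1 higher and 0 to 27 lower between the tumour groups (36 to 3977). Without EV 2, Gbp2 (log2 fold change -1.26, edgeR adjusted p = 0.04999) had a called negative fold change in EV tumours against control, where the fit of all libraries gave a positive one that was not called. Over all libraries left out in turn, its highest value was 1.32. Total counts alone moved the median log2 fold change of all genes between the tumour groups from -0.04 to -0.17, and the higher share of all calls from 39.6% to 24.3%, and that of the 42 genes from -1.88 to -2.02. These alternatives change the samples, genes or method used, and the cause of the differences was not tested. No paired analysis was possible because the labels give no replicate numbers that tie samples across groups. With 3 samples a group, low levels such as those of Oas2, Mx2 and Zbp1 limit the precision of a fold change.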
